A study of Homo sapiens with 12 samples.

Results

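The genes described here are those of the proteasome, taken as every row of the count table whose symbol is PSM followed by 1 of the letters A to G and a number. The rule found 48 of 19919 genes. They were read as 5 immunoproteasome members (PSMB8, PSMB9, PSMB10, PSME1 and PSME2), 41 constitutive members and 2 tissue-specific members (PSMA8 and PSMB11). Of the 48, 47 passed the filter on low counts and were tested among 12027 genes. PSMB11, the thymus-specific catalytic subunit, did not pass: it had 0 counts in every library but Daudi knockout replicate 1, which had 1.

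The proteasome degrades ubiquitin-tagged proteins. Its barrel-shaped core particle has outer rings of alpha subunits and inner rings of beta subunits, of which PSMB6, PSMB7 and PSMB5 carry the cleaving activities, and a regulatory particle of ATPase (PSMC) and non-ATPase (PSMD) subunits recognises and unfolds the substrate. In lymphoid cells and under interferon, PSMB9, PSMB10 and PSMB8 replace those 3 catalytic subunits and form the immunoproteasome, which is known for cutting peptides for MHC class I. PSME1 and PSME2 form the activator PA28, which caps the core and is induced by interferon as well.

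Raji and Daudi are established B cell lines grown from Burkitt lymphoma. Wild-type cells (4 Raji and 2 Daudi libraries) were compared with FBXO11 knock-out cells (4 Raji and 2 Daudi libraries), which lack a ubiquitin ligase subunit. The knockouts were made with a lentiviral CRISPR/Cas9 vector carrying guides against 1 exon of the gene, selected with puromycin and grown from single cells, so each is a clone. The labels do not say which guide or clone a library stands for, or whether the wild-type cells carried a vector. No further allele or agent is named for any group.

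Libraries held 11.2M to 23.6M counts, and proteasome genes took 0.398% to 0.747% of them. A floor of 3 counts, which covers counting error only, lay between 0.118 and 0.275 CPM, which here are counts per 1M after TMM scaling of library sizes. FBXO11 itself ran from 68.6 to 118 CPM in Raji wild type and from 34.1 to 72.1 in Raji knockout, and from 51.7 to 81.8 in Daudi wild type and 88.4 to 92.8 in Daudi knockout. It was not called in either line (edgeR adjusted p = 0.207 and 0.646), and gene counts cannot show a small deletion, so they do not check the labels. All 6 B cell markers were present, and their summed level was 3053 to 3327 CPM in Raji wild type, 2369 to 2900 in Raji knockout, 2680 and 3353 in Daudi wild type and 2304 and 2037 in Daudi knockout. In Daudi knockout 4 of the 6 changed downwards and edgeR called 1, lower, where 1.82% of all genes were. The largest fall there was in MS4A1 (log2 change -1.14), from 1339 and 750 CPM to 518 and 428.5. In Raji knockout 5 of the 6 changed downwards and 0 were called, where 2.60% of all genes were. There 3 had an unadjusted edgeR p under 0.05, as did 15.8% of all genes. Markers of T, NK and erythroid cells summed to at most 12.2, 0.669 and 0.0415 CPM. The 5 epithelial and fibroblast markers summed to 15.9 to 34.1 CPM in Raji wild type, 5.24 to 20.0 in Raji knockout and 0.158 to 0.871 in Daudi. Nearly all of this was COL1A1, a collagen gene, whose Raji groups overlapped (log2 change in knockout -1.15, edgeR adjusted p = 0.24), while COL1A2 was at 0 in all 8 Raji libraries. The part of these markers in the proteasome values was not tested. In bulk RNA, fewer cells of a type and less RNA per cell cannot be told apart. Over genes with at least 50 counts, the chi-square per degree of freedom between Raji wild-type replicates 3 and 4 was 2.18, and each other pair of replicates gave 21.9 or more. It was 21.9 between Raji knockout replicates 1 and 2 and 49.1 between replicates 3 and 4, and 68.8 or more across these pairs.

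The promoters of the 5 immunoproteasome genes are shown because these genes are known to respond together to interferon, and that of PSMA4 because it was the 1 proteasome gene called in a knockout. RefSeq promoters (GRCh38.p14) were found for 42 of the 48 members. Motifs were searched on both strands of the 250 bases before the start: the core of the interferon-stimulated response element (GAAA, any 2 bases, GAAA), the gamma-activated site (TTCNNNGAA) and the core of the antioxidant response element (TGACNNNGC). Capitals mark the match, and no match shown overlaps another. The start is that of the RefSeq entry, and GENCODE release 29 holds transcripts that begin earlier for some genes. The stretches of PSMB10, PSME2 and PSMB8 overlap an annotated GENCODE exon and are cut to the match with 10 bases each side. Those of PSMB9, PSME1 and PSMA4 are clear of annotated exons. Each line runs 5′ to 3′ in the sense of the gene.
PSMB10, chr16:67936852-67936881, minus strand: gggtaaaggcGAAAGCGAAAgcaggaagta
PSME2, chr14:24146619-24146648, minus strand: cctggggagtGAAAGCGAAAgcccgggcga
PSMB8, chr6:32844094-32844122, minus strand: aactgtccttTTCTCGGAAaaggcagggg
PSMB9, chr6:32854032-32854131, plus strand: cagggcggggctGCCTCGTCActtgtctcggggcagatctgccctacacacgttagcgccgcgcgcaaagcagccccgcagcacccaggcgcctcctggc
PSME1, chr14:24136084-24136157, plus strand: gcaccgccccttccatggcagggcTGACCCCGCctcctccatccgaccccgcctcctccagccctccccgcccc
PSMA4, chr15:78540155-78540254, plus strand: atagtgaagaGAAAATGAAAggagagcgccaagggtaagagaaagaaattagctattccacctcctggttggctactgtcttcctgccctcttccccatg

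The first motif was found before 2 of the 5 immunoproteasome genes, PSMB10 and PSME2, and before 3 of the 35 constitutive members with a promoter entry (PSMA4, PSMB4 and PSMG4). Of all 35116 RefSeq promoters, 3.02% hold it. Members were counted by gene, with a match in any of their promoters, and the shares of all promoters were counted by promoter. The 5 genes have 6 promoters and the 35 have 43, so the 2 measures are not the same. The gamma-activated site was found before 1 of the 5 (PSMB8) and 5 of the 35, against 6.57% of all promoters. The third motif was found before 3 of the 5 (PSMB9, PSME1 and PSME2) and 10 of the 35, against 10.91%. The PSMA4 promoter shown in part, chr15:78540155-78540454, held the first motif only. Of the other PSMA4 entries, chr15:78540536-78540835 held the third motif only and chr15:78540194-78540493 held no match. The PSMB8 entry not shown, chr6:32844630-32844929, held no match either. A match is a run of letters in this window and no evidence of a bound factor. By position, PSMB8 (chr6:32840717-32844703, minus strand) and PSMB9 (chr6:32844136-32859585, plus strand) overlap head to head in the MHC region, and PSME1 (chr14:24136158-24138967, plus strand) lies beside PSME2 (chr14:24143362-24147570, minus strand), in GENCODE release 29 on GRCh38. PSMB10 lies at chr16:67934502-67937087 on the minus strand.

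Across all 47 genes the knockout moved few past the test. In Raji knockout against Raji wild type, 0 were called at an edgeR adjusted p under 0.05, where 2.60% of all genes tested were (0.923% higher and 1.68% lower). The smallest adjusted p was 0.116, and 4 genes had an unadjusted p under 0.05, as did 15.8% of all genes. DESeq2 called 2, both lower, where it called 4.19% of all genes lower. In Daudi knockout against Daudi wild type, 1 was called, lower, where 2.62% of all genes were called, 1.82% lower and 0.798% higher. There 9 genes had an unadjusted p under 0.05, as did 14.4% of all genes, and DESeq2 called 3, all lower, where it called 3.87% of all genes lower. Between the wild-type lines, 4 were higher in Raji and 7 were lower, where 20.3% and 24.8% of all genes were (45.1% in all). These contrasts share libraries, so the knockout values of a line and the difference between lines are not independent.

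The immunoproteasome members had a lower median log2 change than the constitutive ones in both knockouts. None of the 5 passed edgeR's test in either. In Raji their median log2 change was -0.59, against -0.07 for the 41 constitutive members and 0.01 for all genes tested. In Daudi it was -0.96, against 0.10 and 0.00. The constitutive PSMA4, at -0.83, was lower there than PSMB8 (-0.71) and PSME1 (-0.65). The change was below 0 for 5 of 5 immunoproteasome members in each line, and for 29 of 41 constitutive members in Raji and 15 of 41 in Daudi. An unadjusted edgeR p under 0.05 was found for 3 of the 5 in Raji and 4 in Daudi. For the 41 constitutive members these counts were 1 and 5, where 15.8% and 14.4% of all genes had such a p. The constitutive median in Daudi rested on wild-type replicate 1: it was -0.22 without that library and 0.41 without replicate 2, while the immunoproteasome median was -0.67 without replicate 1.

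**Figure D1:**
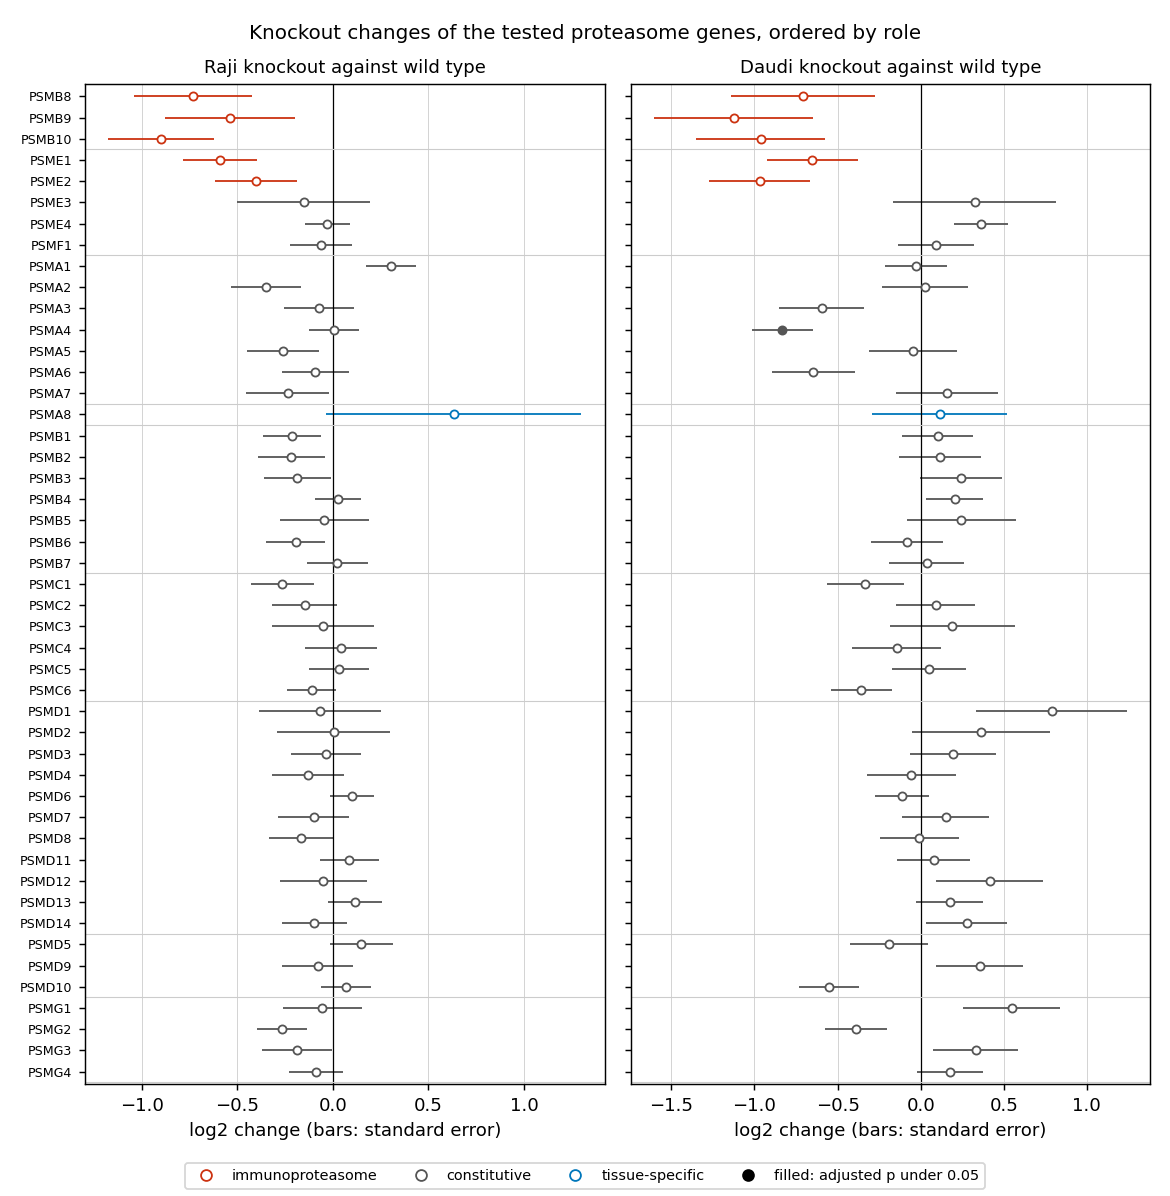
Log2 change of the 47 tested proteasome genes in each knockout, ordered by role (immunoproteasome catalytic subunits, activators, alpha ring, beta ring, ATPases, non-ATPases, chaperones), with bars for the standard error on the x axis, whose range differs between the panels. The 5 immunoproteasome members all lie below 0 in both panels, and the 1 filled point is PSMA4 in Daudi.

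PSMB10 (ENSG00000205220), the subunit that replaces PSMB7, had 54.1, 60.8, 80.3 and 74.1 CPM in Raji wild type and 25.6, 21.6, 38.4 and 58.7 in Raji knockout. Knockout replicates 1, 2 and 3 were below every wild-type library, and replicate 4 lay within their range. The log2 change was -0.90 (SE 0.28, edgeR adjusted p = 0.116), and DESeq2 called it (adjusted p = 0.029). It was also called by edgeR without Raji knockout replicate 4 (log2 change -1.24, adjusted p = 0.0134). In Daudi, wild type gave 98.4 and 71.7 CPM and knockout 42.9 and 44.4, with no overlap, and the log2 change was -0.96 (SE 0.39, edgeR adjusted p = 0.267). PSMB10 shares 34.8% of its exonic bases with AC040162.1 on the same strand, so its counts are uncertain to that extent.

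PSMB8 (ENSG00000204264), the counterpart of PSMB5, had 83.4, 112, 134 and 126 CPM in Raji wild type and 45.4, 35.4, 101 and 92.2 in Raji knockout. The knockout replicates 1 and 2 were below all wild-type libraries, while replicates 3 and 4 lay inside their range. Its log2 change in Raji was -0.73 (SE 0.31, edgeR adjusted p = 0.268). In Daudi it went from 258 and 167 CPM in wild type to 125 and 135 in knockout, without overlap, a log2 change of -0.71 (SE 0.44, edgeR adjusted p = 0.519). It shares 20.6% of its exonic bases with PSMB8-AS1 and PSMB9 on the other strand, whose reads an unstranded kit does not separate.

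PSMB9 (ENSG00000240065), the counterpart of PSMB6, had 35.9, 58.0, 56.2 and 55.0 CPM in Raji wild type and 22.6, 16.6, 50.6 and 51.3 in Raji knockout. The same pair of knockout libraries was low and the other pair lay among the wild-type values, giving a log2 change of -0.54 (SE 0.34, edgeR adjusted p = 0.504). In Daudi the levels were 250.3 and 143 CPM in wild type and 93.6 and 87.0 in knockout. These did not overlap, and the log2 change of -1.12 (SE 0.48, edgeR adjusted p = 0.299) was the lowest of the 47 genes in that line. Between wild-type lines PSMB9 was 3.84-fold lower in Raji (log2 change -1.94, SE 0.40, edgeR adjusted p = 0.00185) and stayed called whichever 1 of the 12 libraries was left out.

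PSME1 (ENSG00000092010), the alpha chain of PA28, had 221, 310.3, 278 and 274 CPM in Raji wild type and 155, 120, 208 and 237 in Raji knockout. Knockout replicates 1, 2 and 3 were below all wild-type values, and the log2 change was -0.59 (SE 0.19, edgeR adjusted p = 0.146; DESeq2 adjusted p = 0.0464). In Daudi wild type both libraries had 247 CPM, and the knockouts had 164 and 150.5, a log2 change of -0.65 (SE 0.27, edgeR adjusted p = 0.293). PSME2 (ENSG00000100911), the beta chain, had 111, 191, 149 and 154 CPM in Raji wild type and 93.4, 88.7, 125 and 149.7 in Raji knockout. Its groups overlapped in Raji and its log2 change there was -0.40 (SE 0.21, edgeR adjusted p = 0.401). In Daudi it had 219 and 300.5 CPM in wild type against 153 and 113 in knockout, a log2 change of -0.97 (SE 0.30, edgeR adjusted p = 0.137; DESeq2 adjusted p = 0.0367). Wild-type Raji had less PSME2 than wild-type Daudi (log2 change -0.78, edgeR adjusted p = 0.0255), a call that was lost without Daudi wild-type replicate 2 (log2 change -0.53, adjusted p = 0.198).

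**Figure D2:**
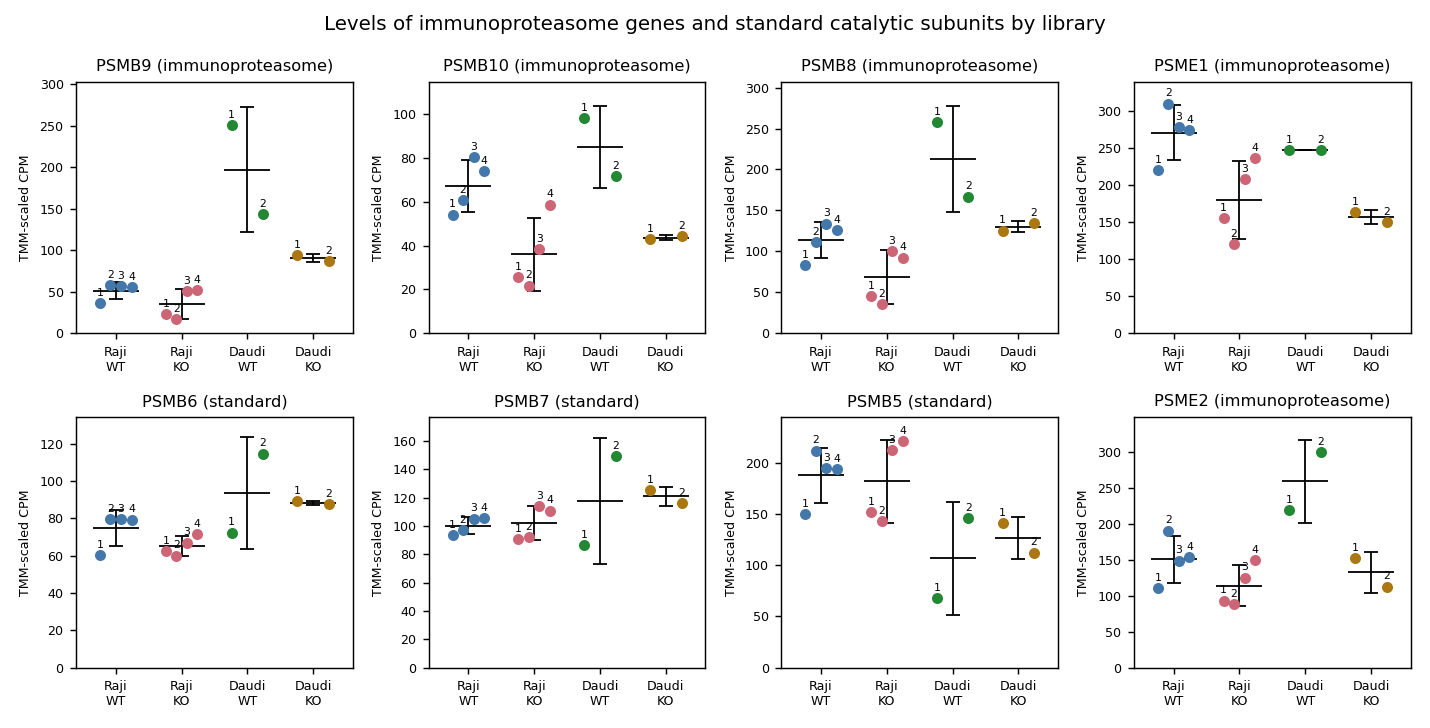
TMM-scaled CPM (y axis, from 0) of the 5 immunoproteasome members and the 3 standard catalytic subunits in each library, numbered by replicate within the 4 groups on the x axis, with the mean (long line) and SD (bars). In Daudi the knockout points of the 5 immunoproteasome members lie below both wild-type points, and in Raji knockout replicates 1 and 2 are the low ones.

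All 5 immunoproteasome members had both Daudi knockout libraries below both wild-type libraries. With 2 libraries a group, 19.6% of all genes tested showed that pattern, and 6 of the 41 constitutive members did. In Raji 0 of the 5 had non-overlapping groups, where 5.99% of all genes lay lower without overlap. The median SD of the 5 on the log2 scale was 0.63 in Raji knockout and 0.30 in Raji wild type, against 0.19 and 0.24 for the constitutive members. Raji knockout replicates 1 and 2 lay further below replicates 3 and 4 for the immunoproteasome genes than for the constitutive ones. Relative to each gene's mean over the 12 libraries, the median immunoproteasome level was -0.99 and -1.23 (log2) in Raji knockout replicates 1 and 2 and -0.21 and 0.05 in replicates 3 and 4, and the constitutive median was -0.22 and -0.19, and 0.08 and 0.04. In Daudi wild-type replicate 1 the 2 classes parted the other way, at 0.93 for the immunoproteasome and -0.29 for the constitutive members, while replicate 2 had 0.67 and 0.28.

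**Figure D3:**
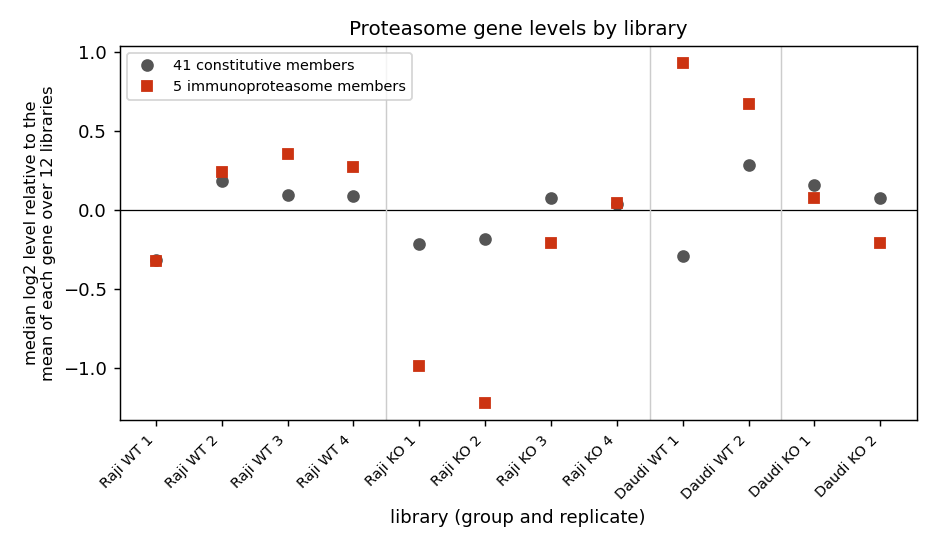
Median log2 level of the 5 immunoproteasome members (squares) and the 41 constitutive members (circles), each gene taken relative to its own mean over the 12 libraries, for every library on the x axis. The squares lie lowest in Raji knockout replicates 1 and 2 (-0.99 and -1.23) and highest in the Daudi wild-type libraries (0.93 and 0.67).

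Each immunoproteasome catalytic subunit was set against the standard subunit whose place it takes. The share is that of the immunoproteasome gene in the summed level of the pair per kilobase of exon. PSMB9 made up 24.3% ± 1.60 (SD, n = 4) of the PSMB9 and PSMB6 level in Raji wild type, 19.4% ± 7.43 (n = 4) in Raji knockout, 49.5% ± 17.6 (n = 2) in Daudi wild type and 32.5% ± 0.875 (n = 2) in Daudi knockout. PSMB10 made up 39.1% ± 2.91, 24.5% ± 6.65, 42.0% ± 14.6 and 25.9% ± 1.48 of its pair with PSMB7 in the same order. PSMB8 made up 26.2% ± 2.41, 17.3% ± 4.18, 54.7% ± 20.4 and 37.9% ± 5 of its pair with PSMB5. All 3 shares were lower on average in the knockouts, and the Daudi wild-type libraries differed widely from each other.

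By library, the PSMB10 share was 35.8%, 37.6%, 42.4% and 40.4% in Raji wild type and 21.3%, 18.5%, 24.5% and 33.8% in Raji knockout, so the groups did not overlap. The PSMB8 share was 24.7%, 23.7%, 28.8% and 27.7% against 15.0%, 12.7%, 21.8% and 19.7%, again without overlap. The PSMB9 share was 21.9%, 25.5%, 24.9% and 24.6% against 14.6%, 11.5%, 26.2% and 25.3%, which overlapped. The log2 ratio within the pair, in which library scaling cancels, differed between Raji knockout and wild type by -1.01 for PSMB10, -0.79 for PSMB8 and -0.49 for PSMB9. In Daudi the 3 ratios differed by -1.03, -1.01 and -1.03. The Daudi groups did not overlap for PSMB10 and PSMB9. They overlapped for PSMB8, whose share was 69.1% and 40.2% in wild type and 34.3% and 41.4% in knockout. Without Daudi wild-type replicate 1, whose shares were 52.3%, 69.1% and 61.9% against 31.6%, 40.2% and 37.1% in replicate 2, the Daudi differences were -0.41 for PSMB10, -0.15 for PSMB8 and -0.29 for PSMB9. Without replicate 2 they were -1.65, -1.88 and -1.76. These ratios and shares carry no test, and how often other gene pairs stand apart between groups was not computed.

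**Figure D4:**
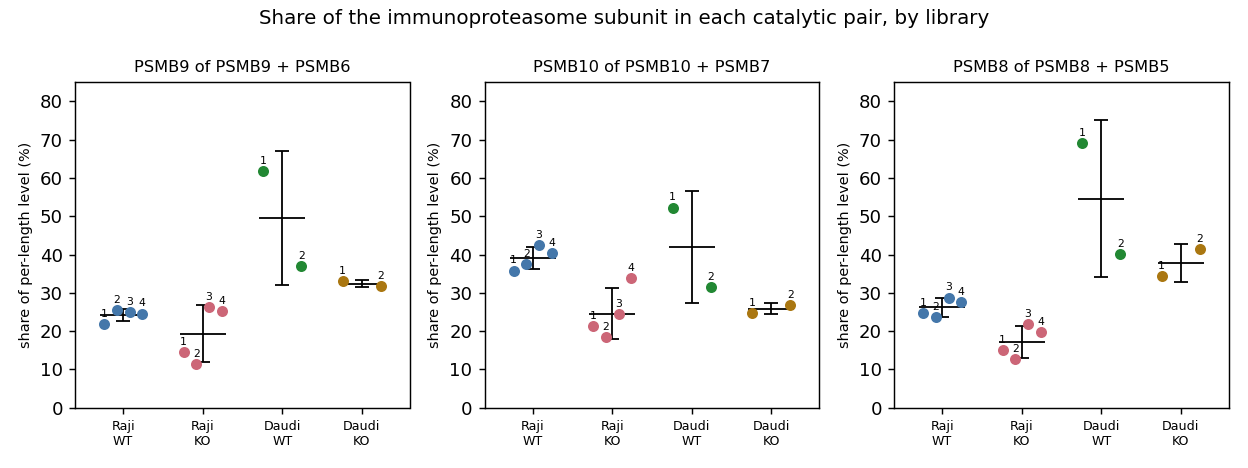
Share of the immunoproteasome subunit in the per-length level of each catalytic pair (y axis, percent) by group, 1 point per library numbered by replicate, with mean and SD. The Raji knockout points for PSMB10 (18.5% to 33.8%) and PSMB8 (12.7% to 21.8%) lie below all Raji wild-type points, and Daudi wild-type replicate 1 is the highest point in each panel.

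The standard catalytic subunits gave no call in either knockout. PSMB5, which carries the chymotrypsin-like activity, had 150, 212, 195 and 194 CPM in Raji wild type and 152, 143, 212 and 221 in Raji knockout, and 68.0 and 146 against 141 and 112 in Daudi. PSMB6, with the caspase-like activity, had 60.3, 79.7, 79.7 and 79.4 against 62.3, 60.1, 67.1 and 71.6 CPM in Raji, and 72.5 and 115 against 89.2 and 87.8 in Daudi. PSMB7, with the trypsin-like activity, had 93.4, 97.3, 105 and 105 against 91.0, 92.0, 114 and 111 CPM in Raji, and 86.5 and 149 against 126 and 116 in Daudi. Knockout and wild-type libraries overlapped for all 3 genes in both lines. The edgeR log2 changes in Raji were -0.04, -0.20 and 0.02 and in Daudi 0.24, -0.08 and 0.04. In the whole standard beta ring 0 of 7 genes were called in either knockout, with values from -0.22 (PSMB2) to 0.03 (PSMB4) in Raji and from -0.08 (PSMB6) to 0.24 (PSMB5) in Daudi. PSMB5 was 1.75-fold higher in wild-type Raji than in wild-type Daudi (log2 change 0.81, SE 0.30, edgeR adjusted p = 0.0416). That call was lost when any 1 of 6 libraries was left out: Raji wild-type replicate 2, 3 or 4, Daudi wild-type replicate 1 (log2 change 0.36, adjusted p = 0.35) or either Daudi knockout library. The lowest adjusted p among those 6 fits was 0.0509.

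Among the other caps of the core, PSME3, the nuclear activator PA28 gamma, had 119, 233, 186 and 185 CPM in Raji wild type and 112, 114, 186 and 238 in Raji knockout, and 94.7 and 300.6 against 235 and 259 in Daudi. Its groups overlapped in both lines, with log2 changes of -0.15 (SE 0.35) and 0.32 (SE 0.49). PSME4, the activator PA200, had 197, 218, 193 and 189 CPM in Raji wild type and 206, 216, 193 and 166 in Raji knockout, a log2 change of -0.03 (SE 0.12). In Daudi it had 112 and 114 CPM in wild type and 136 and 156 in knockout, which did not overlap (log2 change 0.36, SE 0.16, edgeR adjusted p = 0.337). PSME4 was 1.76-fold higher in wild-type Raji than Daudi (log2 change 0.81, SE 0.15, edgeR adjusted p = 0.000842) and kept that call whichever library was left out. PSMF1, which encodes the inhibitor PI31, was not called in any contrast.

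In the alpha ring, whose subunits form the gate of the core, PSMA4 (ENSG00000041357, chr15:78540405-78552419, plus strand) was the 1 proteasome gene called in a knockout. It had 409 and 312 CPM in Daudi wild type and 215 and 190 in Daudi knockout, a 1.78-fold fall (log2 change -0.83, SE 0.18, edgeR adjusted p = 0.0357). In Raji it had 138, 162, 170.3 and 183 CPM in wild type and 157, 155, 178 and 164 in knockout, with overlap and a log2 change of 0.00 (SE 0.13). The Daudi call was lost in 6 of the 12 fits that left out 1 library. The edgeR adjusted p was 0.0562 without Raji wild-type replicate 3, 0.0517 without Raji knockout replicate 1 or without replicate 2, 0.262 without Daudi wild-type replicate 1 (log2 change -0.62), and 0.134 and 0.33 without Daudi knockout replicates 1 and 2. It was also lost with the libraries of Daudi alone (adjusted p = 0.337) and with Raji wild-type replicates 3 and 4 summed (0.0512). The difference between the knockout effects, Raji minus Daudi, was 0.84 (SE 0.23, edgeR adjusted p = 0.124; DESeq2 adjusted p = 0.00717), and edgeR called it without Daudi wild-type replicate 2 (1.02, adjusted p = 0.0342). PSMA4 was 2.21-fold lower in wild-type Raji than in wild-type Daudi (edgeR adjusted p = 0.000104).

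PSMA3 and PSMA6 were the other alpha genes with both Daudi knockout libraries below wild type. PSMA3 had 107.5 and 163 CPM against 97.2 and 82.0 (log2 change -0.60, edgeR adjusted p = 0.308), and PSMA6 had 129 and 158 against 102 and 82.1 (log2 change -0.65, edgeR adjusted p = 0.241). In Raji knockout the alpha values ran from -0.35 (PSMA2) to 0.30 (PSMA1). PSMA1 was the 1 proteasome gene whose Raji groups did not overlap, at 106, 110.2, 113 and 122 CPM in wild type and 149, 140.3, 134 and 134 in knockout, where 5.80% of all genes lay higher without overlap. It did not pass (edgeR adjusted p = 0.287), and 24.7% of its exonic bases are shared with AC018523.2. PSMA7 was called higher in wild-type Raji than Daudi (log2 change 0.72, SE 0.27, edgeR adjusted p = 0.0481) although Daudi wild-type replicate 2, at 185 CPM, lay among the Raji values of 168 to 277. It remained called in 3 of the 12 fits that left out 1 library, those without Raji wild-type replicate 1, Raji knockout replicate 4 or Daudi wild-type replicate 2, and had an adjusted p of 0.388 without Daudi wild-type replicate 1.

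PSMA8, the testis-specific relative of PSMA7, was the gene that differed most between the lines. Daudi had 22.0 and 17.0 CPM in wild type and 19.9 and 22.3 in knockout. Raji had at most 3 counts in each of its 8 libraries and 14 in all. Wild-type Daudi held 873 counts and wild-type Raji 5, a ratio of 252 after scaling (exact 95% interval 108 to 778, counting error only). The edgeR test gave a log2 change of -7.84 for Raji against Daudi (SE 0.48, adjusted p = 2.4e-07), and the call held whichever library was left out. PSMA8 shares coding sequence with PSMA7, and the labels do not say how reads matching both were divided.

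The ATPases, which unfold the substrate, gave 0 calls of 6 in either knockout. Their log2 changes lay between -0.27 (PSMC1) and 0.04 (PSMC4) in Raji and between -0.36 (PSMC6) and 0.19 (PSMC3) in Daudi. PSMC6 had 107.5 and 145 CPM in Daudi wild type and 106.5 and 90.8 in Daudi knockout, just without overlap. Between wild-type lines PSMC6 (log2 change -0.57, edgeR adjusted p = 0.0102) and PSMC1 (log2 change -0.62, edgeR adjusted p = 0.0221) were lower in Raji. Both calls were lost without Daudi wild-type replicate 2, at adjusted p = 0.138 and 0.321. PSMC1 shares 75.8% of its exonic bases with NRDE2 on the other strand, and reads of the 2 genes cannot be told apart without strand.

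The 11 non-ATPase subunits of the lid and base, which hold the ubiquitin receptors and the deubiquitinase PSMD14, gave 0 calls in either knockout. In Raji they ran from -0.17 (PSMD8) to 0.12 (PSMD13). In Daudi the highest value was that of PSMD1, a scaffold of the base, at 0.79 (SE 0.45, edgeR adjusted p = 0.482). Its Daudi levels were 33.4 and 119 CPM in wild type and 130.3 and 133 in knockout. Wild-type replicate 1 decided that value: the log2 change was 0.14 without it, and 1.98 with a call (edgeR adjusted p = 0.0112) without replicate 2. The base chaperone PSMD10, also known as gankyrin, had 64.5 and 61.2 CPM in Daudi wild type and 48.9 and 36.9 in knockout (log2 change -0.55, SE 0.18, edgeR adjusted p = 0.155; DESeq2 adjusted p = 0.0378). In Raji it had 26.2, 30.5, 32.5 and 31.3 CPM in wild type and 28.8, 32.6, 30.4 and 34.7 in knockout. PSMD10 was lower in wild-type Raji than Daudi (log2 change -1.06, SE 0.15, edgeR adjusted p = 0.000169) in every fit that left out 1 library. Of the other base chaperones, PSMD5 and PSMD9 were not called in any contrast.

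The 4 core assembly chaperones, which build the alpha ring, gave 0 calls in either knockout. In this group, the standard beta ring, the ATPases and the 11 non-ATPase subunits, 0 genes had an unadjusted edgeR p under 0.05 in either knockout and DESeq2 called 0. Of all genes, 15.8% in Raji and 14.4% in Daudi had such a p, and DESeq2 called 4.19% and 3.87% lower. PSMG1 had 36.3 and 68.1 CPM in Daudi wild type and 80.7 and 71.8 in knockout (log2 change 0.55, SE 0.29, edgeR adjusted p = 0.441). PSMG2 had 51.9 and 50.7 CPM against 40.1 and 38.2 (log2 change -0.39, SE 0.19, edgeR adjusted p = 0.373). Both pairs of groups stood apart, in opposite directions. In Raji PSMG2 had the lowest value of the 4, -0.27 (SE 0.13, edgeR adjusted p = 0.364). PSMG3 was called higher in wild-type Raji than Daudi (log2 change 0.60, SE 0.23, edgeR adjusted p = 0.0486). It remained called in 4 of the 12 fits that left out 1 library, those without Raji wild-type replicate 2, Raji knockout replicates 1 or 4, or Daudi wild-type replicate 2, and had an adjusted p of 0.364 without Daudi wild-type replicate 1.

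Over the 47 genes, 11 had both Daudi knockout libraries below both wild-type libraries and 4 had both above, where 19.6% and 20.0% of all genes did. For constitutive members these were 6 and 4 of 41. Between wild-type lines, 6 of the 47 lay higher in Raji without overlap and 9 lower, where 25.6% and 30.9% of all genes did. The counts of called genes between the lines moved with the Daudi wild-type libraries. Without replicate 1 there were 1 higher and 10 lower, and without replicate 2 there were 10 higher and 4 lower. PSMA4, PSMA8, PSMB9, PSMD10 and PSME4 were called in all 12 such fits. For the difference between the knockout effects, 0 of 47 were called by edgeR, where 0.773% of all genes were (0.474% with a higher effect in Raji and 0.299% with a lower one), and 2 had an unadjusted p under 0.05 (PSMA4 and PSMD10), as did 13.1% of all genes. DESeq2 called 1, PSMA4, where it gave 2.31% of all genes a higher effect in Raji. The 5 immunoproteasome members gave differences from -0.03 (PSMB8) to 0.59 (PSMB9), and the smallest adjusted p among them was 0.57.

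The wider pathway was read from 28 partners of the proteasome, such as ubiquitin genes, shuttle factors, deubiquitinases and the chaperone POMP. None of the 28 was called in either knockout by edgeR, where 5 had an unadjusted p under 0.05 in Raji and 4 in Daudi, against 15.8% and 14.4% of all genes. Their median log2 change was -0.07 in Raji and 0.02 in Daudi. POMP, which assembles the core and is needed for the immunoproteasome, gave -0.10 (SE 0.16) in Raji and 0.01 (SE 0.22) in Daudi. NFE2L1, the factor that raises proteasome genes when degradation fails, gave -0.33 (SE 0.19) and -0.11 (SE 0.27), and its relative NFE2L2 gave -0.11 (SE 0.14) and 0.21 (SE 0.19). Between wild-type lines 5 of the 28 were higher in Raji and 4 lower, where 20.3% and 24.8% of all genes were.

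A second list held 15 regulators of the immunoproteasome and its partners in antigen presentation. In Raji knockout 0 of 15 were called by edgeR, 2 had an unadjusted p under 0.05 (15.8% of all genes did) and the median was -0.26. In Daudi knockout 5 of 15 fell and 0 rose, where 1.82% of all genes tested fell and 0.798% rose, and the median was -1.20. IRF1, which drives PSMB9 and TAP1, had 149 and 51.6 CPM in Daudi wild type and 24.1 and 22.4 in knockout (log2 change -2.11, SE 0.44, edgeR adjusted p = 0.0279). TAP1, the peptide transporter gene beside PSMB9, had 468 and 180 CPM against 85.6 and 87.2 (log2 change -1.91, SE 0.39, edgeR adjusted p = 0.0255). STAT2 (-2.45) and IRF9 (-3.23) were also called. In Daudi wild type STAT2 had 975 and 188.5 CPM, against 113 and 100 in knockout, and IRF9 had 279 and 64.9 against 22.9 and 13.9. Wild-type replicate 1 was the higher library for IRF1, TAP1, STAT2 and IRF9. Whether these calls hold with that library left out was not tested. NLRC5, the transactivator of MHC class I genes, was not called (log2 change -0.56, SE 0.45). Raji levels of TAP1 ran from 71.0 to 88.5 CPM in wild type and from 40.5 to 77.6 in knockout. The knockout effect on IRF9 differed between lines (edgeR adjusted p = 0.0383).

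Interferon response genes were read beside the immunoproteasome genes, since both are known interferon targets. The median level of 25 interferon-induced genes was 354 and 114 CPM in the Daudi wild-type libraries, 5.21 and 1.77 in Daudi knockout and 0.0446 to 0.55 in the 8 Raji libraries. Of the 23 tested, 19 fell in Daudi knockout, where 1.82% of all genes did. In Raji knockout edgeR called 0, where 2.60% of all genes were called, and 5 had an unadjusted p under 0.05, as did 15.8% of all genes. The 2 Daudi wild-type libraries differed from each other in the same order for this list and for PSMB9, PSMB10 and PSMB8. The order was the reverse for PSME2, and PSME1 had 247 CPM in both libraries. Myeloid markers moved in both directions. Their 5 genes summed to 59.8 and 30.9 CPM in Daudi wild type and 14.2 and 21.3 in knockout, with CD14 at 0 to 0.276 CPM. In Raji they summed to 3.21 to 7.94 CPM in wild type and 1.01 to 2.82 in knockout. In Daudi the mean of CSF1R fell from 24.6 to 9.56 CPM, and CD68 had 27.8 and 1.29 against 0.513 and 0.236. LYZ (3.63 to 4.61) and ITGAM (2.55 to 3.07) rose there. Of the 4 tested, edgeR called 0 in Daudi knockout, where 2.62% of all genes were called. It called 1, lower, in Raji knockout, where 1.68% of all genes were called lower. The part of these lists in the proteasome values was not tested.

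Per kilobase of exon, the most abundant proteasome transcript in wild-type Raji was PSME1 (152 ± 20.8 RPKM, SD, n = 4), followed by PSMA7 (133 ± 26.4) and PSMB5 (106 ± 15.1). The first 2 of these differed by less than their spread. In Raji knockout PSME1 averaged 101 ± 29.4 RPKM, beside PSMA7 at 113 ± 20.5 and PSMB5 at 103 ± 22.8, all within their spread. In wild-type Daudi PSME1 led with 139 ± 0.0514 RPKM (n = 2). PSMB3 (81.6 ± 32.6), PSMB4 (81.5 ± 15.7) and PSMA7 (80.45 ± 35.3) followed, within their spread. In Daudi knockout PSME1, at 88.2 ± 5.24, was below PSMB3 (96.6 ± 1.17), PSMB4 (93.9 ± 4.00) and PSMA7 (89.8 ± 5.64). Such orders depend on the length used, which for PSMA7 was 1750 exonic bases, while its longest transcript has 1023. PSMB9 ranked low in Raji, at 16.7 ± 3.35 RPKM in wild type and 11.5 ± 5.94 in knockout, against 64.1 ± 24.6 and 29.4 ± 1.52 in Daudi. Of the members with counts in every library, PSMG4 was the lowest per kilobase in all 4 groups, from 2.44 ± 0.494 in Daudi wild type to 3.33 ± 0.165 in Raji wild type.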

How the data were processed

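Per the labels' protocols, TRIzol-extracted, DNase-treated RNA went into TruSeq v2 libraries, a kit that selects polyadenylated RNA without marking strand. The deposited values are raw read counts, whole numbers for each gene in 1 table of the 12 libraries. STAR 2.5.0, RSEM 1.3.0 and the build hg38 (GRCh38) are named, without roles, in the submitters' processing notes, which do not say whether estimates were rounded. From these counts, edgeR 4.0.16 in R 4.3.3 fitted a robust quasi-likelihood model to all 12 libraries in 4 groups, with its default filter and TMM scaling (common biological coefficient of variation 26.1%, 8 residual degrees of freedom). Benjamini-Hochberg adjustment ran over the 12027 genes tested. Standard errors come from the log2 change and its F statistic. The script was tested on simulated data. Lengths, for RPKM computed here, are the exonic bases of GENCODE release 29. DESeq2 1.42.0, other filters and scalings, summed replicates and leaving out each library were tried as alternatives. The members and lists were chosen with earlier results of these data known. Genes named with values are the immunoproteasome members, the standard catalytic, tissue-specific and activator genes, every member called in a contrast, the member with the largest change per role and knockout, and a few singled out after their values were seen (PSMA1, PSMA3, PSMA6). Nothing in the labels says that replicates came from separate cultures, so p-values may measure technical spread. Reads carried no molecular identifiers. A regulator on the second list is not reported here, though it stays in the counts over its list.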

Additional observations from a re-analysis of the deposited data

Results flagged for a closer look

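Within groups of 4 Raji libraries, Dixon's test at the 95% level was run on each tested gene and on the ratios of the 3 catalytic pairs. In 8 of 100 such combinations, all of them of a gene, 1 library lay far from the other 3. Chance gives about 1 in 20, and the combinations share libraries, so they are not independent. In 6 of the 8 the low library was Raji wild-type replicate 1. It had 76.4 CPM of PSMA3 against 111 to 117 in the other wild-type libraries, 83.2 of PSMA5 against 123 to 128, 76.3 of PSMB3 against 103 to 105 and 60.3 of PSMB6 against 79.4 to 79.7. It also had 35.9 CPM of PSMB9 against 55.0 to 57.9, and 50.2 of PSMG1, a chaperone of alpha ring assembly, against 76.3 to 81.1. In that library 37 of the 41 constitutive members were below their mean over the 12 libraries. So were 33 and 34 of the 41 in Raji knockout replicates 1 and 2, and 33 in Daudi wild-type replicate 1. The other 2 of the 8 flagged values were high ones in Raji knockout replicate 3. They were 174 CPM of PSMB2 against 143 to 148, and 109 of PSMD14, the deubiquitinase of the lid, against 85.7 to 88.7. Leaving out Raji wild-type replicate 1 gave 0 proteasome genes called in Raji knockout, as with all libraries.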

How the results depend on the processing

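No paired analysis was possible because the names of the knockout libraries carry numbers of their own that the wild-type libraries do not share. With DESeq2, 2 proteasome genes were called lower in Raji knockout (PSMB10 and PSME1), 3 lower in Daudi knockout (PSMA4, PSMD10 and PSME2), and 1 had a higher effect in Raji than in Daudi (PSMA4). In Daudi knockout 0 were called lower with Raji wild-type replicates 3 and 4 summed, with the libraries of Daudi alone, or with Raji knockout replicates summed in 2 pairs, an alternative chosen after seeing the data. Between wild-type lines, the 4 genes called higher in Raji became 2 with no filter on low counts, and 1 (PSME4) with a stricter filter, with Raji wild-type replicates 3 and 4 summed and with the knockout pairs summed. When each library was left out in turn, the count called lower in Raji knockout ran from 0 to 1, those called higher and lower in Daudi knockout each from 0 to 1, and those of the difference between the effects each from 0 to 1. The counts between wild-type lines ran from 1 to 10 higher and from 4 to 10 lower. The median of the constitutive members ran from -0.22 to 0.41 in Daudi knockout, from -0.49 to 0.11 for the difference between the effects and from -0.26 to 0.33 between wild-type lines, with both ends set by leaving out 1 of the Daudi wild-type libraries. The cause of these moves was not tested. For the named genes, 684 of 719 values under the other settings kept their direction and side of the threshold. With a library left out 1043 of 1152 values did, and 0 called values changed sign in either case. With the longest transcript as length, 4 of 12 pair shares moved by more than 1 SD. With 2 libraries a group in Daudi, 1 library sets the direction of several constitutive values there.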
